A study of Mus musculus with 12 samples.

Results

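The levels of 40 cell cycle and DNA replication genes were examined in endothelial cells sorted from the cortex of adult mouse brain. The genes were taken by name from the 21638 genes of the table: 25 act in mitosis and 15 in DNA replication or at the G1/S boundary, and the 2 classes are described apart. RNA was sequenced from 12 libraries in 4 groups of 3. The wild-type group is called WT. The Hdac2 ECKO group (endothelial knockout of a histone deacetylase gene) came from Hdac2lox/lox:Cdh5CreERT2 mice, the libraries labelled Ezh2 ECKO (endothelial loss of a Polycomb histone methyltransferase, hereafter the Ezh2 ECKO-labelled libraries) from Ezh2lox/lox:Cdh5CreERT2 mice, and the beta-catenin GOF group (constitutive activation of beta-catenin) from Ctnnb1lox/lox:Cdh5CreERT2 mice. Cdh5CreERT2 is a Cre recombinase driven by the promoter of an endothelial cadherin gene and switched on by tamoxifen. The mutants received 5 doses of tamoxifen at 75 mg/kg, and brains were taken 2 months later. The labels do not say whether WT mice carried Cre or received tamoxifen, nor whether the 3 libraries of a group came from separate animals, so the p-values measure only the spread between these samples. In such bulk libraries, fewer cells in division and less of an RNA per cell cannot be told apart.

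Cells enter the cycle when cyclin D and its kinases phosphorylate the retinoblastoma proteins, which frees E2F factors to switch on genes for replication. The MCM helicase is loaded at origins, the sliding clamp PCNA holds the polymerases on DNA, and ribonucleotide reductase and thymidylate synthase supply nucleotides. Mitotic genes come on later, in G2 and M, and in resting cells both classes are held down by the DREAM complex, a repressor that holds E2F4 and the MuvB core. Endothelium of the adult brain is largely quiescent.

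The classes differed in the DNA around their start sites, a property that the choice of genes by name did not use. The table of RefSeq promoters (GRCm38.p6), with windows from 250 bases before to 50 bases after the start, held 33 of the 40 genes. Tpx2, Kif20a, Ccna2, Gins2, Aurkb, Ccnd1 and Mcm4 had no entry. The 12 replication genes held gave 13 windows, because Mcm7 has windows at different start sites and each was counted. Motifs of 3 kinds were searched on both strands: the CHR (TTTGAA or TTTAAA), an element through which DREAM binds mitotic genes, the CCAAT box (CCAAT), bound by NF-Y, and a set of E2F sites (TTTCCCGC, TTTCGCGC, TTTGCCGC or TTTGGCGC). Every match was counted, also where matches overlap, as TTTGGCGC on one strand and TTTCGCGC on the other do in Mcm6. A CHR stood in 19 of 21 mitotic windows (90.5%) and in 4 of 13 replication windows (30.8%), against 27.6% of all 32851 windows. The CCAAT box stood in 85.7% of mitotic windows, 69.2% of replication windows and 37.4% of all windows, and CCAAT box and CHR stood together in 81%, 23.1% and 10.7%. An E2F site stood in 2 of 21 mitotic windows (9.52%) and in 5 of 13 replication windows (38.5%), against 2.26% of all windows. Some matches lie at or after the start: the only CHR of Aurka, Bub1b, Cenpe, Hjurp, Kif23, Ndc80 and Rrm2 is there. The same holds for the only E2F sites of Mcm3 and Ncapg. A match of letters is a description and does not show that a factor bound there.

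The 150 bases before the start of 5 genes are shown as examples of these motifs. Of the mitotic class they are Mki67 (chr7:135716380-135716529, minus strand), Top2a (chr11:99024190-99024339, minus strand) and Cdk1 (chr10:69352913-69353062, minus strand). Of the replication class they are Mcm6 (chr1:128359706-128359855, minus strand) and Mcm5 (chr8:75109359-75109508, plus strand). Capitals mark the CHR, the CCAAT box and E2F sites on either strand.
Mki67: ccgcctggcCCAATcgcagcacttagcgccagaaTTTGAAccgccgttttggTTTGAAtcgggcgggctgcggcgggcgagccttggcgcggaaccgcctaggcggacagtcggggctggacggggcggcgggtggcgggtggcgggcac
Top2a: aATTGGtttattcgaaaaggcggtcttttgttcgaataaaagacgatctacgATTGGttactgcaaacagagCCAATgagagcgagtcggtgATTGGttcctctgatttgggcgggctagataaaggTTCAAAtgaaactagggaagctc
Cdk1: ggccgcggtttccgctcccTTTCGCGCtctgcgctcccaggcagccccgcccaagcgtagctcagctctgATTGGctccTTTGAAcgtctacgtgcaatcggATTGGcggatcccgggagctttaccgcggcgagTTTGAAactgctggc
Mcm6: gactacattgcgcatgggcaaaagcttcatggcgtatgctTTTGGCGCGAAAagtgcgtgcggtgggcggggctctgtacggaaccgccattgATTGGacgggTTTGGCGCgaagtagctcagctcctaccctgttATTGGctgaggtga
Mcm5: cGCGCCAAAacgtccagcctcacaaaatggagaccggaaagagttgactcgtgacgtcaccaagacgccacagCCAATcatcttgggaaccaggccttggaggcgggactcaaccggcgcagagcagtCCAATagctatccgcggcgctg
In these stretches Mki67 has 1 CCAAT box upstream of 2 CHRs, and Top2a has 4 CCAAT boxes with a single CHR close to the start. Cdk1 carries all 3 kinds of motif. Mcm6 has 3 E2F sites, of which a pair overlap, and Mcm5 has 1, and neither has a CHR in the printed stretch. Farther upstream, Mcm5 does have a CHR, 221 bases before its start, and is counted among the 4 replication windows with a CHR.

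Each library held 24781070 to 36109975 counts with 13922 to 17091 genes above 0, so that 3 counts, used as the floor, equal 0.0791 to 0.118 CPM (counts per 1000000 of the scaled library total). Those genes whose mean count reached 10 were tested with edgeR's quasi-likelihood test, and a gene is called changed at a Benjamini-Hochberg adjusted p under 0.05 over all 12577 genes tested. Summed levels of 8 endothelial markers were 5247 to 7382 CPM, and those of 6 microglial and macrophage markers, cells that the sort should remove, were 1.49 to 8.76 CPM. Those of 4 lymphoid and myeloid blood cell markers, also of cells to be removed, were 3.51 to 26.2 CPM in WT, 0.277 to 17.6 in Hdac2 ECKO, 0.900 to 2.59 in beta-catenin GOF and 0.227 to 149.7 in the Ezh2 ECKO-labelled libraries, where replicate 2 held the highest sum of all 12 libraries. The targeted genes did not pass the test: Hdac2 stood at 129 ± 30.1 CPM in WT and 96.5 ± 15.2 in Hdac2 ECKO (SD, n = 3), Ezh2 at 6.75 ± 3.52 in WT and 8.92 ± 3.35 in the Ezh2 ECKO-labelled libraries, and Ctnnb1 at 654 ± 138 in WT and 583 ± 109 in beta-catenin GOF. Ezh2 RNA thus did not show the labelled deletion. A gene-level count does not show whether a lox-flanked part was removed, and none of these values checks recombination. Across the 12577 genes, log2 fold changes rose with gene length (Spearman's rho 0.44 for Hdac2 ECKO, 0.29 for the Ezh2 ECKO-labelled libraries and 0.14 for beta-catenin GOF, each against WT).

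Most mitotic genes were of low level, though in no library were more than 3 of the 25 at or under the floor of 3 counts. In WT the median mitotic gene had 0.225 CPM per kb of gene length, under the median of all 20343 genes with counts (0.582), and the median replication gene had 1.71 CPM per kb. Of the mitotic genes, 20 had a mean over the 12 libraries under 5 CPM, and 5 lay above it (Ccna2, Kif20a, Kif23, Cenpa and Hjurp); this division was made after the values were seen. The classical proliferation markers were among the low genes, with WT levels of 0.0494 CPM per kb for Mki67, 0.107 for Top2a and 0.236 for Cdk1, at percentiles 36.0, 39.8 and 43.9 of all genes with counts. In contrast Ccna2, encoding cyclin A2, reached 5.93 CPM per kb in WT, and Pcna reached 60.5 CPM per kb, at percentile 94.5.

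**Figure D1:**
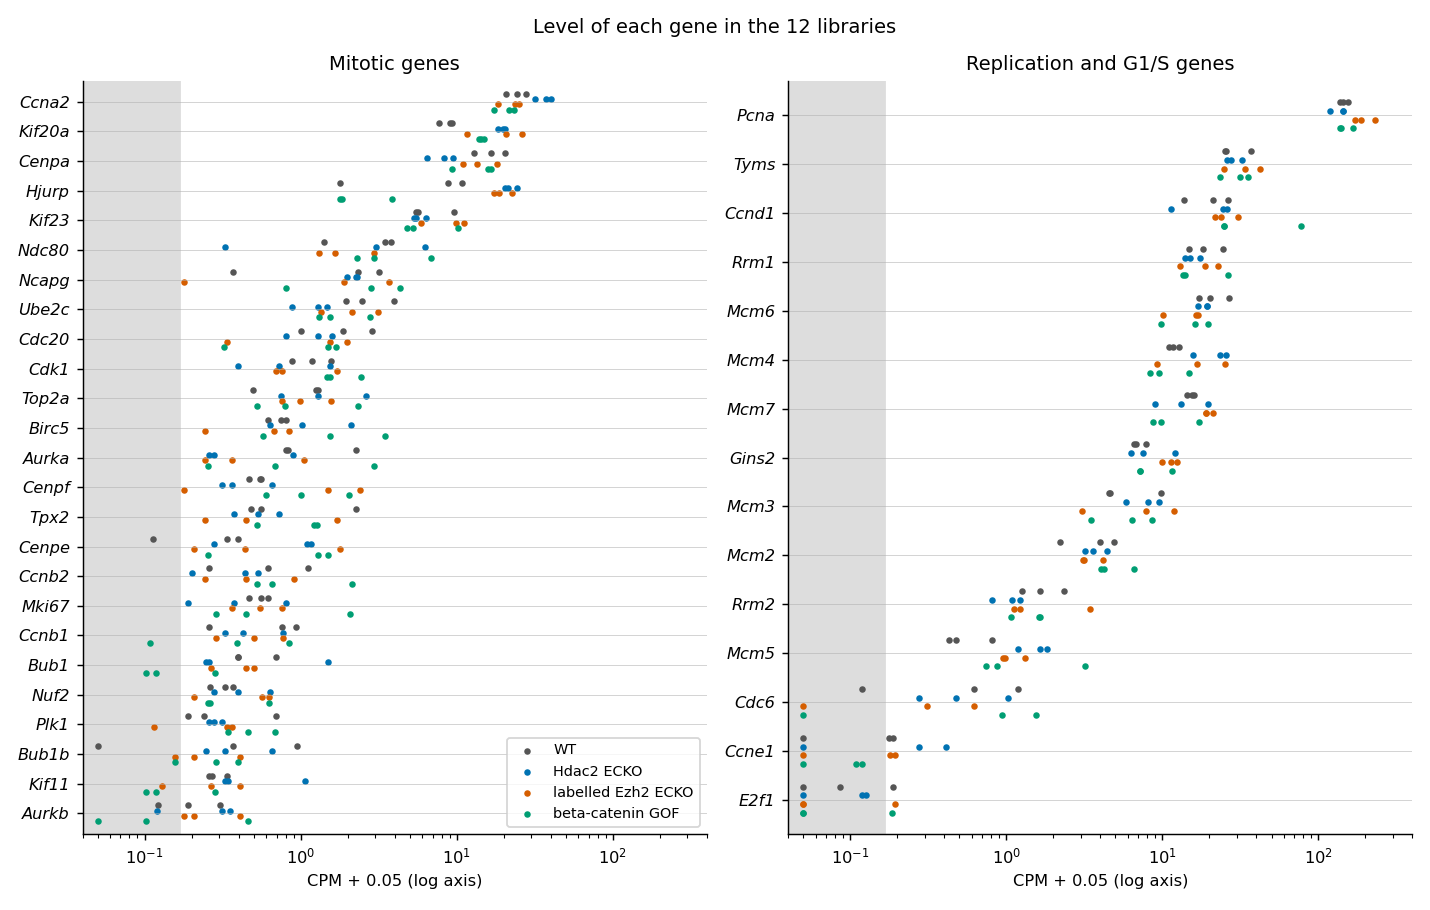
Level of each of the 40 genes in the 12 libraries, in CPM on a log axis with a small offset so that zeros can be drawn; each point is 1 library, coloured by group, and genes are ordered by mean level. Grey marks values at or under 3 counts; 20 of the 25 mitotic genes average under 5 CPM, while Pcna lies at 118 CPM or more in all libraries.

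Of the 25 mitotic genes, 21 were tested and 4 (Aurkb, Bub1b, Plk1 and Kif11) were under the count minimum. In Hdac2 ECKO against WT, 1 mitotic gene rose, Kif20a, and none fell, against 3.82% of all tested genes called higher and 5.38% called lower. The median log2 fold change of the mitotic genes was -0.27, beside 0.10 over all genes, and 10 were positive and 11 negative. In the Ezh2 ECKO-labelled libraries no mitotic gene passed in either direction (background 0.342% higher and 0.684% lower), with 8 positive and 13 negative and a median of -0.21, beside 0.05. In beta-catenin GOF no mitotic gene passed, where edgeR called 0 of 12577 genes in either direction (0% higher, 0% lower), and the median was 0.26, beside 0.01. At an unadjusted p under 0.05, edgeR gave 4 of the 21 mitotic genes in Hdac2 ECKO (4161 of all 12577 genes), 2 in the Ezh2 ECKO-labelled libraries (3111 of all genes) and 2 in beta-catenin GOF (763 of all genes). The 3 libraries of a group lay apart from those of WT for 5 mitotic genes in Hdac2 ECKO (background 37.8% of genes), for 2 in the Ezh2 ECKO-labelled libraries (21.9%) and for 3 in beta-catenin GOF (12.7%).

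Among regulators and markers of mitosis, Mki67, which encodes the Ki-67 protein that coats mitotic chromosomes, had 0.416, 0.506 and 0.570 CPM in WT replicates 1 to 3, and 0.757, 0.326 and 0.139 CPM in Hdac2 ECKO. The Ezh2 ECKO-labelled libraries had 0.713, 0.315 and 0.503 CPM, and beta-catenin GOF had 0.239, 0.396 and 2.03 CPM. The groups overlap, and beta-catenin GOF replicate 3 alone exceeds 1 CPM; these values rest on 4 to 70 counts. Top2a, the topoisomerase that untangles replicated DNA, showed the same overlap with 1.25, 0.443 and 1.21 CPM in WT and 2.57, 1.24 and 0.693 in Hdac2 ECKO. Its values were 0.940, 0.708 and 1.51 CPM in the Ezh2 ECKO-labelled libraries and 0.477, 0.739 and 2.26 CPM in beta-catenin GOF. Here too the highest beta-catenin GOF value is that of replicate 3, while the highest of all 12 is Hdac2 ECKO replicate 1.

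Cdk1, the kinase that drives entry into mitosis, had 0.833, 1.52 and 1.14 CPM in WT, against 0.681, 1.5 and 0.347 in Hdac2 ECKO, 0.648, 0.708 and 1.65 in the Ezh2 ECKO-labelled libraries and 1.5, 1.42 and 2.38 in beta-catenin GOF. Its partner cyclin B1, encoded by Ccnb1, had 0.208, 0.886 and 0.712 CPM in WT, against 0.378, 0.717 and 0.277 in Hdac2 ECKO, 0.454, 0.236 and 0.718 in the Ezh2 ECKO-labelled libraries and 0.341, 0.791 and 0.0581 in beta-catenin GOF. Neither gene separated the groups. The log2 fold changes of Mki67 against WT were -0.29 ± 1.05 (SE), 0.04 ± 1.05 and 0.83 ± 1.04 in Hdac2 ECKO, the Ezh2 ECKO-labelled libraries and beta-catenin GOF. At these counts the standard error exceeds every one of the changes, and no difference was detectable. The same holds for Ccnb1 (-0.39 ± 1.08, -0.36 ± 1.08 and -0.59 ± 1.08). Of the other regulators, the mitotic kinase gene Aurka averaged 1.25 ± 0.837 CPM in WT and 0.428 ± 0.364 in Hdac2 ECKO (SD, n = 3), and Cdc20, an activator of the anaphase-promoting complex, 1.86 ± 0.932 and 1.18 ± 0.393. Ube2c, the ubiquitin-conjugating enzyme of that complex, had 2.43, 1.90 and 3.92 CPM in WT and 1.25, 1.43 and 0.832 in Hdac2 ECKO. Its groups do not overlap there, but its edgeR adjusted p was 0.19, and 22.8% of its exon bases overlap Tnnc2 on the other strand, a gene with group means from 0 to 0.0808 CPM.

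Ccna2, whose product cyclin A2 acts in S phase and G2, was the most abundant mitotic gene. It had 24.4, 20.6 and 27.5 CPM in WT and 37.2, 31.8 and 40.2 in Hdac2 ECKO, where all 3 libraries exceeded those of WT (log2 fold change 0.59 ± 0.25, edgeR adjusted p = 0.12, not passed). Values of 25.1, 18.4 and 23.7 CPM in the Ezh2 ECKO-labelled libraries and of 17.3, 21.7 and 23.3 CPM in beta-catenin GOF both overlapped WT. Exosc9 overlaps 12.5% of the exon bases of Ccna2 on the other strand and had 70.6 ± 9.35 CPM in WT and 79.5 ± 4.99 in Hdac2 ECKO (SD, n = 3).

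Kif20a (ENSMUSG00000003779.16, GRCm38 chromosome 18, 34624613 to 34633277, plus strand), encoding a kinesin of the central spindle needed in cytokinesis, was the one member that rose against WT. It had 9.23, 7.63 and 9.04 CPM in WT and 19.6, 18.2 and 20.4 CPM in Hdac2 ECKO, with no overlap, a log2 fold change of 1.17 ± 0.30 (2.25-fold, edgeR adjusted p = 0.036). The Ezh2 ECKO-labelled libraries had 26.3, 11.6 and 20.5 CPM, all above WT, with a fold change of nearly the same size (1.18 ± 0.30) that did not pass (edgeR adjusted p = 0.061). It passed in 5 of 12 alternative settings and in 2 of 12 fits without 1 library. Over those 12 fits the change ran from 0.88 to 1.44 (edgeR adjusted p 0.0092 to 0.23). The 2 that passed were without replicate 2 labelled Ezh2 ECKO (1.44, edgeR adjusted p = 0.0092) and without WT replicate 3 (1.21, 0.044). Without that replicate 2, 2328 of all genes were called, beside 129 with all libraries. In beta-catenin GOF the values were 15.0, 14.2 and 13.9 CPM, again all above WT (0.73 ± 0.30, edgeR adjusted p = 0.78, not passed). The 3 comparisons share the WT libraries, and a difference between mutants did not pass for Kif20a in any of the 3 direct tests. In Hdac2 ECKO, the call held under all 12 alternative settings (log2 fold change 1.05 to 1.42). It was lost without WT replicate 1 (edgeR adjusted p = 0.13), WT replicate 2 (0.11), Hdac2 ECKO replicate 1 (0.16) or replicate 3 (0.14), or beta-catenin GOF replicate 2 (0.053). Cdc23 overlaps 29.3% of the exon bases of Kif20a on the other strand, and without a stated strand setting reads of the 2 genes there cannot be told apart. Cdc23 had 37.3, 26.1 and 19.1 CPM in WT and 25.4, 35.3 and 30.8 in Hdac2 ECKO, groups that overlap (0.15, edgeR adjusted p = 0.76). The related kinesin gene Kif23, which also serves the central spindle, had 6.84 ± 2.30 CPM in WT and 5.67 ± 0.553 in Hdac2 ECKO (SD, n = 3).

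Hjurp and Cenpa stand for the centromere: Cenpa encodes the histone H3 variant that marks it, and Hjurp the chaperone that deposits that histone. Neither overlaps exons of another gene. Hjurp (ENSMUSG00000044783.16, chromosome 1, 88262471 to 88277633, minus strand) had 1.73, 8.80 and 10.8 CPM in WT and 21.2, 20.4 and 24.3 CPM in Hdac2 ECKO. The Ezh2 ECKO-labelled libraries had 18.7, 17.4 and 22.4 CPM, and beta-catenin GOF had 3.82, 1.79 and 1.74 CPM. Both the Hdac2 ECKO libraries and those labelled Ezh2 ECKO lie above all WT libraries, while beta-catenin GOF overlaps WT only through WT replicate 1, which stands apart from the other 2. Against WT the log2 fold changes were 1.62 ± 0.49 in Hdac2 ECKO (edgeR adjusted p = 0.051), 1.45 ± 0.49 in the Ezh2 ECKO-labelled libraries (0.10) and -1.54 ± 0.50 in beta-catenin GOF (0.66), none of which passed. In Hdac2 ECKO, 9 of 12 alternative settings brought the gene past the threshold, but only 2 of 12 fits without 1 library did. Without WT replicate 1 the change was 1.16 (edgeR adjusted p = 0.14), and without WT replicate 3 it was 2.06 (0.031).

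Cenpa (ENSMUSG00000029177.9, chromosome 5, 30666777 to 30674830, plus strand) had the opposite sign in Hdac2 ECKO. It had 16.5, 12.9 and 20.4 CPM in WT and 9.42, 8.22 and 6.38 CPM in Hdac2 ECKO, with no overlap. The log2 fold change of -1.05 ± 0.33 just missed the threshold (edgeR adjusted p = 0.054). The gene passed in 8 of 12 alternative settings but in only 1 of 12 fits without 1 library (edgeR adjusted p 0.028 to 0.18). It had 13.4, 18.1 and 10.9 CPM in the Ezh2 ECKO-labelled libraries and, in beta-catenin GOF, 15.9, 16.6 and 9.23 CPM, both overlapping WT.

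At the kinetochore, Cenpe, a kinesin that carries chromosomes to the spindle equator, had 0.347, 0.0633 and 0.285 CPM in WT, against 0.227, 1.11 and 1.04 in Hdac2 ECKO, 0.389, 0.157 and 1.72 in the Ezh2 ECKO-labelled libraries and 0.205, 1.24 and 1.45 in beta-catenin GOF. In each mutant group at least 1 library lay among the WT values. Cenpf, a large kinetochore protein gene, had 0.416, 0.506 and 0.498 CPM in WT, against 0.605, 0.261 and 0.312 in Hdac2 ECKO, 0.130, 2.36 and 1.44 in the Ezh2 ECKO-labelled libraries and 0.546, 1.98 and 0.958 in beta-catenin GOF. Only the last group lay wholly above WT, and its change of 1.29 ± 1.00 did not pass (edgeR adjusted p = 0.91). The outer kinetochore genes Ndc80 and Nuf2, the condensin gene Ncapg and the checkpoint kinase gene Bub1 had group means from 0.118 to 3.97 CPM, and none passed. Bub1 lay wholly below WT in beta-catenin GOF, on 2, 2 and 8 counts against 10, 11 and 18 (-1.88 ± 1.17, edgeR adjusted p = 0.89). The untested Aurkb, Bub1b, Plk1 and Kif11 had group means from 0.118 to 0.531 CPM.

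**Figure D2:**
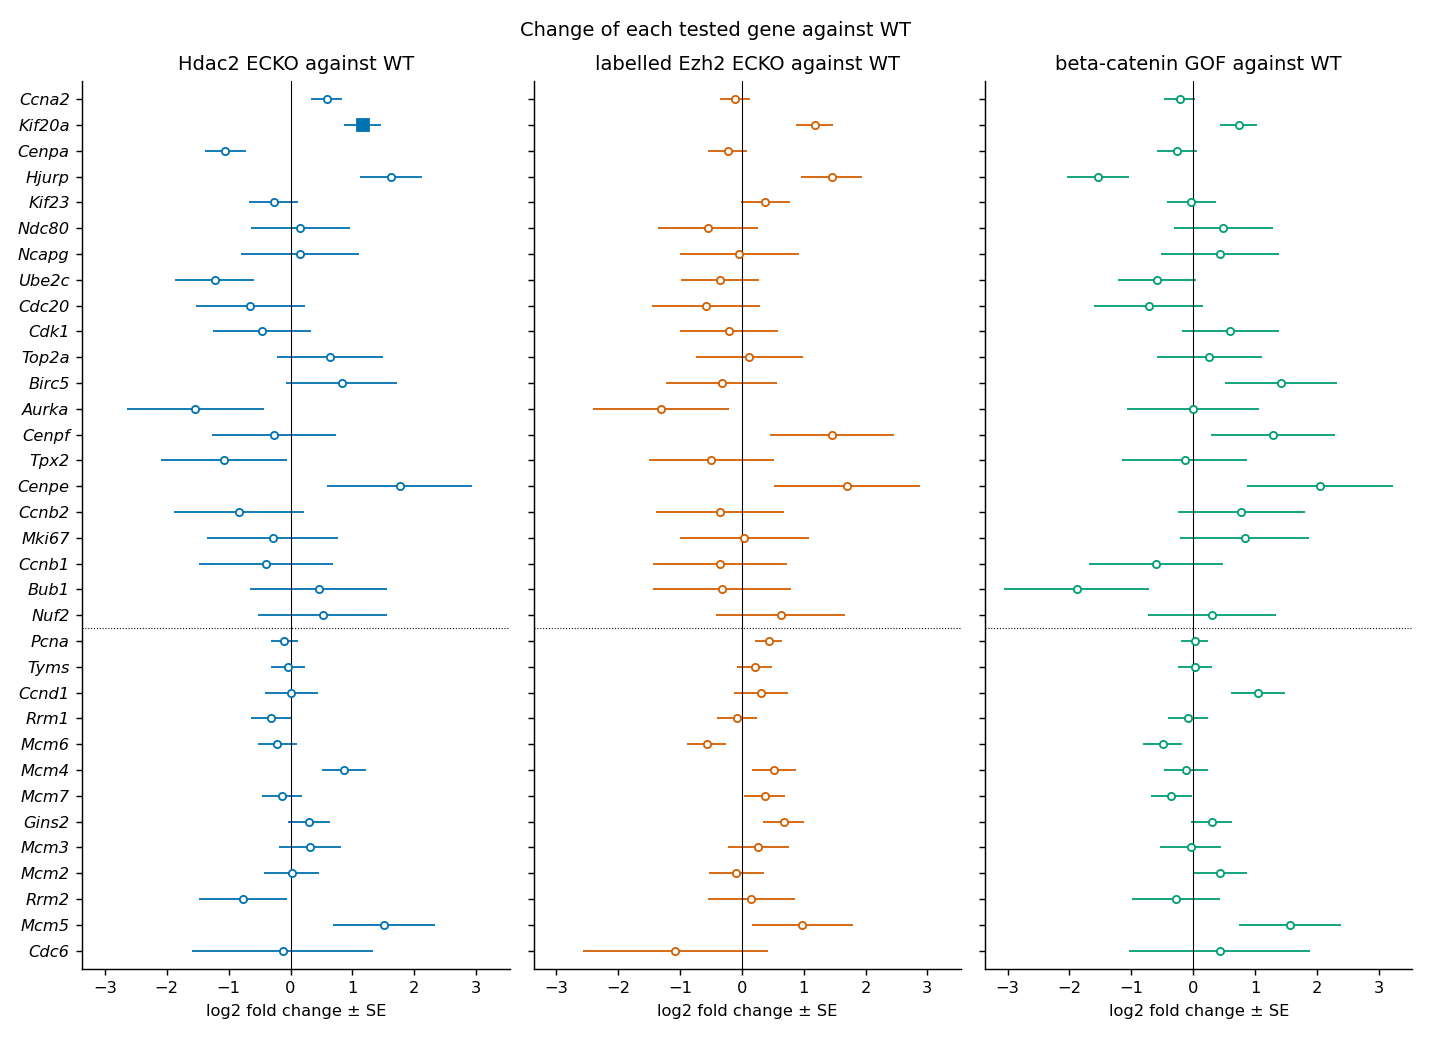
Log2 fold change with its standard error from edgeR for the 34 tested genes in each mutant group against WT; the dotted line parts the 21 mitotic genes (above) from the 13 replication and G1/S genes (below), ordered by mean level. The filled square marks the one call, Kif20a in Hdac2 ECKO (1.17 ± 0.30); bars widen toward the low genes of each class.

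Summed over the 20 low mitotic genes, the level was 20.7, 17.6 and 17.8 CPM in WT, against 22.3, 17.3 and 11.0 in Hdac2 ECKO, 10.9, 15.1 and 22.5 in the Ezh2 ECKO-labelled libraries and 11.7, 23.0 and 32.2 in beta-catenin GOF. The groups overlap, and replicates within each mutant group differ by more than those of WT. Beta-catenin GOF replicate 3 held the highest sum (1110 counts) and was the highest of the 12 libraries for 7 of the 25 mitotic genes and 4 of the 15 replication genes. Without it the median mitotic log2 fold change of beta-catenin GOF turned from 0.26 to -0.15, and without WT replicate 3 to -0.06. Without WT replicate 1, WT replicate 2 or Hdac2 ECKO replicate 3, the mitotic median of Hdac2 ECKO turned from -0.27 to 0.09, 0.04 and 0.09.

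Of the 15 replication and G1/S genes, 13 were tested, and Ccne1 and E2f1 were under the count minimum. None passed in any of the 3 comparisons with WT; the share of all tested genes called is given above. In Hdac2 ECKO 6 were positive and 7 negative and the median log2 fold change was -0.04, and in beta-catenin GOF 7 and 6 with a median of 0.02. In the Ezh2 ECKO-labelled libraries 9 were positive and 4 negative with a median of 0.27, beside 0.05 over all genes. There the 3 libraries lay above WT for Mcm5, Mcm7, Pcna and Gins2 and below for Mcm6, in all 5 of 13 genes, against 21.9% of all genes. In Hdac2 ECKO the groups did not overlap for Mcm4 and Mcm5 (higher) and Rrm2 (lower), 3 of 13 against 37.8% of all genes, and in beta-catenin GOF for none, against 12.7%. At an unadjusted p under 0.05, edgeR gave 1 replication gene in Hdac2 ECKO (Mcm4), 0 in the Ezh2 ECKO-labelled libraries and 1 in beta-catenin GOF (Ccnd1), of 13 tested, beside 4161, 3111 and 763 of all 12577 genes.

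The 6 subunits of the MCM helicase form one ring in equal parts, yet their RNAs spanned a wide range: in WT Mcm6 had 4.58, Mcm7 3.43, Mcm4 3.29, Mcm3 1.67, Mcm2 0.523 and Mcm5 0.131 CPM per kb. In that order the WT libraries of Mcm7 and Mcm4 overlap, and those of the other neighbours do not. Mcm6 had 26.7, 20.1 and 17.2 CPM in WT, against 16.8, 19.3 and 19.2 in Hdac2 ECKO, 16.8, 10.1 and 16.4 in the Ezh2 ECKO-labelled libraries and 16.2, 19.6 and 9.70 in beta-catenin GOF. Only the Ezh2 ECKO-labelled libraries lay wholly below WT (-0.56 ± 0.31, edgeR adjusted p = 0.28). Mcm2 had 2.15, 3.93 and 4.84 CPM in WT, against 4.39, 3.13 and 3.53 in Hdac2 ECKO, 3.11, 3.07 and 4.09 in the Ezh2 ECKO-labelled libraries and 4.16, 6.54 and 4.01 in beta-catenin GOF, so all groups overlap.

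Mcm4 had 11.7, 12.7 and 11.0 CPM in WT and 25.4, 23.2 and 15.7 in Hdac2 ECKO, where every library exceeded WT (0.86 ± 0.36, edgeR adjusted p = 0.11, not passed). The Ezh2 ECKO-labelled libraries had 25.1, 9.17 and 16.5 CPM and beta-catenin GOF 8.25, 9.52 and 14.7 CPM, both on either side of WT. Mcm5, the scarcest subunit, had 0.763, 0.380 and 0.427 CPM in WT, against 1.13, 1.76 and 1.59 in Hdac2 ECKO, 0.907, 1.26 and 0.933 in the Ezh2 ECKO-labelled libraries and 0.818, 0.686 and 3.16 in beta-catenin GOF. Its fold changes were the largest of the subunits (1.51 ± 0.82, 0.98 ± 0.81 and 1.57 ± 0.82 on the log2 scale), with standard errors to match, and none passed. Subunits therefore took different signs within a group: in the Ezh2 ECKO-labelled libraries, Mcm5 and Mcm7 lay above WT and Mcm6 below, none of them past the threshold.

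**Figure D3:**
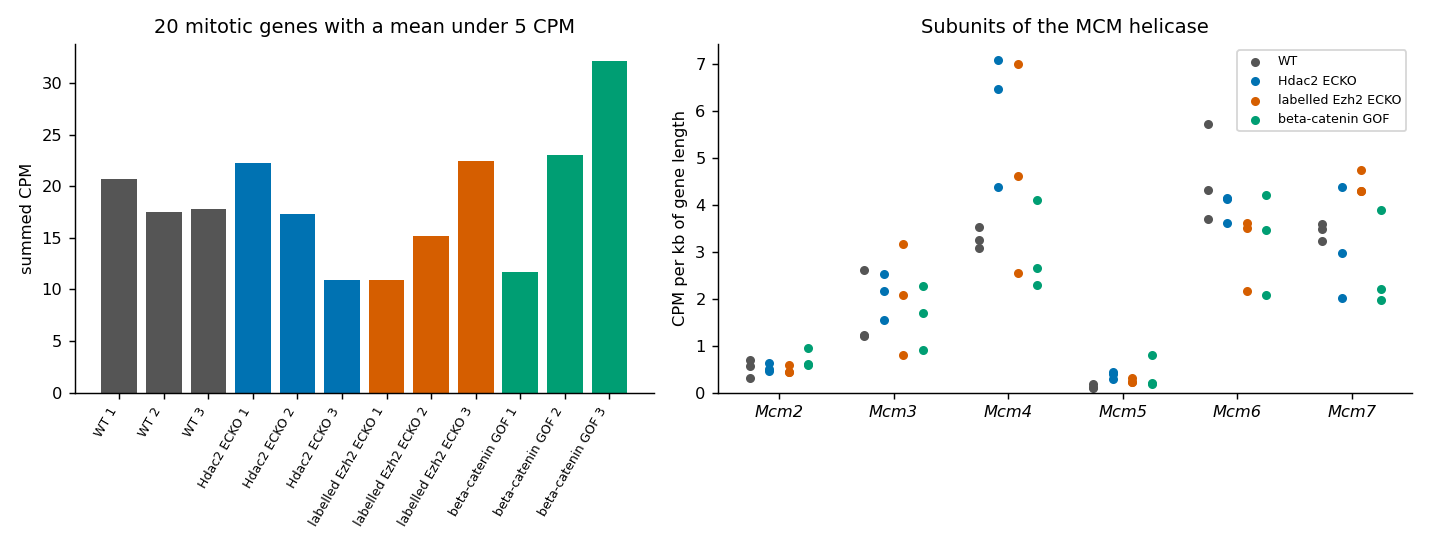
Left, summed CPM of the 20 mitotic genes with a mean under 5 CPM in each of the 12 libraries, from 10.9 in replicate 1 labelled Ezh2 ECKO to 32.2 in beta-catenin GOF replicate 3. Right, CPM per kb of gene length of the 6 MCM subunits, 1 point per library; Mcm2 and Mcm5 stay under 1 in all libraries.

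Pcna was the most abundant of the 40 genes, with 138, 145 and 153 CPM in WT, against 143, 118 and 144 in Hdac2 ECKO and 167, 136 and 140 in beta-catenin GOF. The Ezh2 ECKO-labelled libraries had 173, 229 and 187 CPM, all above WT and all above the other mutants (0.43 ± 0.22 against WT, edgeR adjusted p = 0.22, not passed). Gins2, a subunit of the GINS complex that activates the helicase, had 6.52, 6.68 and 7.80 CPM in WT, against 6.28, 7.50 and 12.0 in Hdac2 ECKO, 11.3, 9.84 and 12.3 in the Ezh2 ECKO-labelled libraries and 7.16, 11.5 and 7.11 in beta-catenin GOF. Those labelled Ezh2 ECKO again lie above WT (0.68 ± 0.33, edgeR adjusted p = 0.22), but Gse1 overlaps 67.3% of the exon bases of Gins2 on the other strand and had 16.6 ± 4.70 CPM in WT and 20.7 ± 3.87 there (SD, n = 3). Of the nucleotide suppliers, the thymidylate synthase gene Tyms had 25.3, 25.7 and 36.8 CPM in WT, against 32.1, 26.1 and 27.4 in Hdac2 ECKO, 33.7, 42.4 and 24.9 in the Ezh2 ECKO-labelled libraries and 23.4, 31.2 and 35.2 in beta-catenin GOF. Rrm2, the ribonucleotide reductase subunit made in S phase, had 1.60, 1.2 and 2.28 CPM in WT and 0.757, 1.17 and 1.04 in Hdac2 ECKO, with no overlap but a small margin (-0.77 ± 0.71, edgeR adjusted p = 0.47). Its values were 3.37, 1.18 and 1.08 CPM in the Ezh2 ECKO-labelled libraries and 1.02, 1.58 and 1.57 in beta-catenin GOF. Rrm1, the partner subunit, averaged 15.4 to 19.1 CPM in the 4 groups.

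Of the G1/S regulators, Ccnd1, which encodes cyclin D1 and is a known target of beta-catenin with TCF factors in other tissues, had 13.7, 26.3 and 20.9 CPM in WT, against 11.3, 26.0 and 24.3 in Hdac2 ECKO and 21.5, 23.6 and 30.4 in the Ezh2 ECKO-labelled libraries. In beta-catenin GOF it had 24.6, 24.9 and 76.7 CPM, so that replicates 1 and 2 lie among the WT values and replicate 3 alone is high. The log2 fold change was 1.05 ± 0.44 (edgeR adjusted p = 0.78, not passed), and 0.28 without beta-catenin GOF replicate 3. LTO1 overlaps 23.4% of the exon bases of Ccnd1 on the other strand and was also highest in that library, with 28.2, 32.0 and 62.1 CPM in beta-catenin GOF. Ccne1, for cyclin E1, had 0.139, 0.127 and 0 CPM in WT, against 0.227, 0.359 and 0 in Hdac2 ECKO, 0.130, 0 and 0.144 in the Ezh2 ECKO-labelled libraries and 0.0682, 0 and 0.0581 in beta-catenin GOF. E2f1, an activating E2F factor, had 0.139, 0 and 0.0356 CPM in WT, against 0.0757, 0 and 0.0693 in Hdac2 ECKO, 0, 0 and 0.144 in the Ezh2 ECKO-labelled libraries and 0.136, 0 and 0 in beta-catenin GOF. Neither gene was tested. E2f1 had at most 4 counts in a library and Ccne1 at most 11, beside the floor of 3, too few to compare the groups. Cdc6, which loads the MCM ring, averaged 0.278 to 0.799 CPM in the 4 groups.

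**Figure D4:**
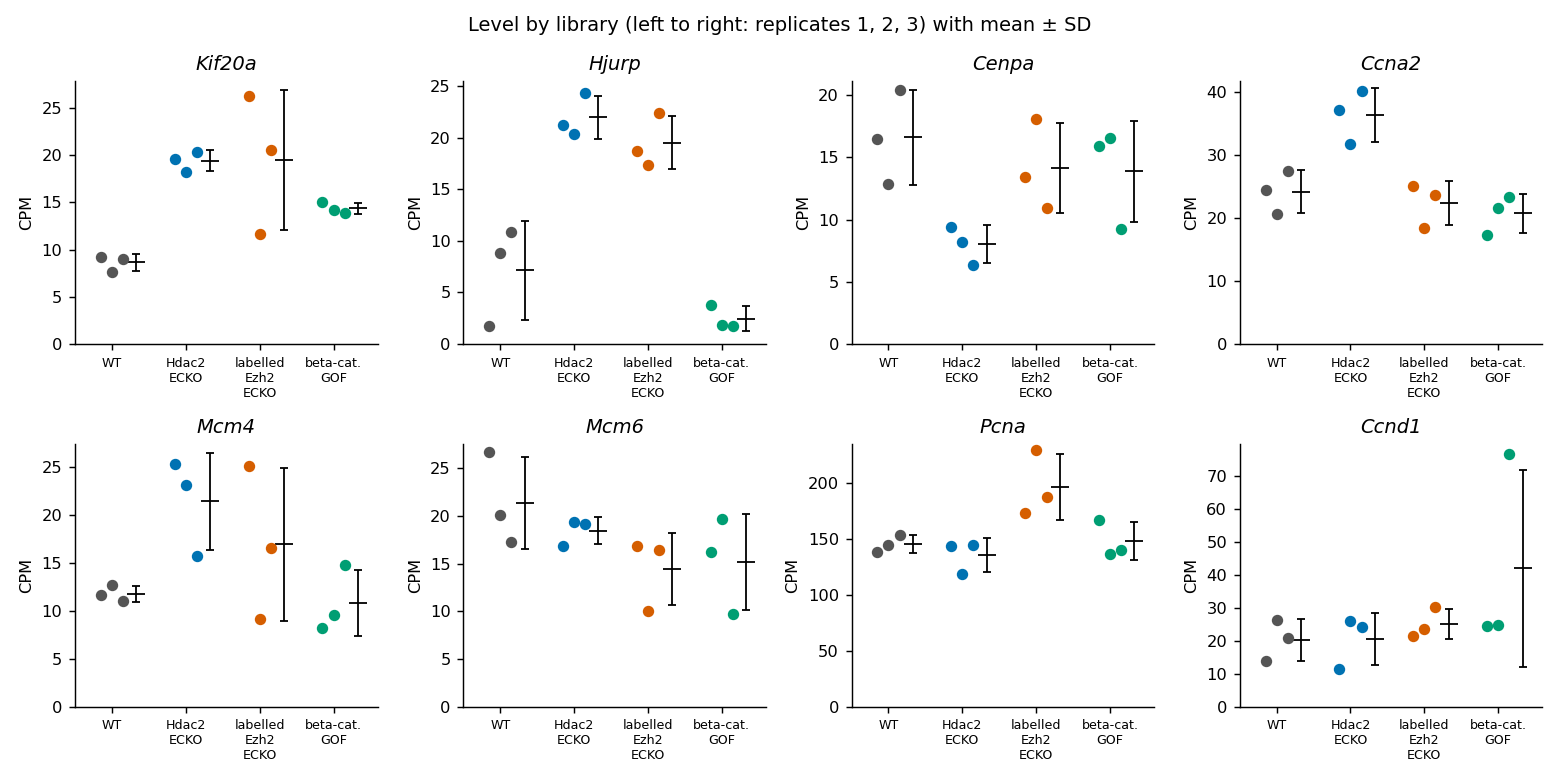
CPM by library (replicates 1, 2 and 3 from left to right) with mean ± SD (n = 3) for 4 mitotic genes (top) and 4 replication and G1/S genes (bottom). Kif20a in all 3 mutant groups and Hjurp in Hdac2 ECKO and the Ezh2 ECKO-labelled libraries lie above WT, Hjurp in beta-catenin GOF is low, and the high mean of Ccnd1 in beta-catenin GOF comes from replicate 3 (76.7 CPM).

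Other genes of the same pathways were read from lists made by known function. Of 46 other mitotic genes, 32 were tested and none passed in any comparison with WT. Of 49 other replication genes, 45 were tested, and 1 fell in Hdac2 ECKO and none passed elsewhere. Of 24 regulators of G1, 22 were tested, and in Hdac2 ECKO 1 rose and 2 fell, with none passing in the other mutants. Beside these counts stand the 3.82% of all genes called higher and the 5.38% called lower in Hdac2 ECKO. The medians of the 3 lists in Hdac2 ECKO were -0.0018, 0.03 and 0.09 on the log2 scale, beside 0.10 over all genes.

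The replication gene that fell was Chaf1b, a subunit of the chromatin assembly factor CAF-1, which had 4.44, 3.36 and 0.676 CPM in WT and 0.151, 0.457 and 0.277 in Hdac2 ECKO (log2 fold change -3.23 ± 0.86, edgeR adjusted p = 0.039). The G1 regulators that fell were Cdk4 and Cdkn1a. Cdk4, the kinase partner of cyclin D, had 262, 234 and 178 CPM in WT and 69.0, 133 and 71.0 in Hdac2 ECKO (-1.30 ± 0.38, edgeR adjusted p = 0.045). Cdkn1a, encoding the CDK inhibitor p21, had 207, 168 and 111 CPM in WT and 32.5, 34.6 and 40.1 in Hdac2 ECKO (-2.18 ± 0.32, edgeR adjusted p = 0.032). In all 3 genes the Hdac2 ECKO libraries lay below WT without overlap. E2f3, an activating E2F factor, rose from 1.60, 2.44 and 2.35 CPM in WT to 5.83, 5.22 and 6.90 in Hdac2 ECKO (1.49 ± 0.42, edgeR adjusted p = 0.042). It had 7.68, 6.69 and 8.26 CPM in the Ezh2 ECKO-labelled libraries, a change of 1.82 ± 0.42 that did not pass (edgeR adjusted p = 0.051). Cdk4, a driver of cell cycle entry, and Cdkn1a, for an inhibitor, were therefore both lower in the same Hdac2 ECKO libraries, where E2f3 was higher.

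These 4 calls also hung on single libraries. All were lost without WT replicate 1 or 2 or Hdac2 ECKO replicate 1 or 3, with edgeR adjusted p-values of 0.15, 0.11, 0.17 and 0.15 for Chaf1b, 0.15, 0.11, 0.18 and 0.17 for Cdk4, 0.15, 0.11, 0.16 and 0.15 for E2f3, and 0.092, 0.091, 0.16 and 0.13 for Cdkn1a. Beta-catenin GOF libraries enter these comparisons only through the shared estimate of the spread, the scaling and the gene filter. Without replicate 1, 2 or 3 of that group, Chaf1b was at an edgeR adjusted p of 0.051, 0.057 and 0.051 and Cdk4 at 0.059, 0.062 and 0.056. E2f3 was at 0.054 and 0.053 without its replicate 1 or 2. E2f3 also missed the threshold once the trend on gene length and GC content was removed (edgeR adjusted p = 0.075), with no filter on low counts (0.058) and with only the 2 groups in the fit (0.0505), and Cdk4 missed it under library-size scaling (0.057).

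Some marker sums of other cells differed between Hdac2 ECKO and WT. The summed level of 6 pericyte markers was 32.2 to 48.6 CPM in WT and 63.1 to 119 in Hdac2 ECKO, that of 5 astrocyte markers 19.8 to 34.6 and 42.3 to 65.4, that of 4 neuronal markers 159 to 300 and 60.6 to 109, and that of 3 red cell genes 19611 to 33708 and 212 to 11710.5. Smooth muscle markers overlapped (34.8 to 74.2 and 65.5 to 195). Of the red cell, pericyte, astrocyte and neuronal markers none was at 0 in every library of either group, but single libraries lacked some. The neuronal sum of WT replicate 2 (179 CPM) rested on Stmn2, with Snap25, Syt1 and Rbfox3 at 0. In WT replicate 3 and Hdac2 ECKO replicate 2, 1 of the 4 was above the floor, and in replicate 1 of both groups all 4. Aqp4, Slc1a2 and Aldoc were at 0 in WT replicate 2, and Gfap and Aldoc in Hdac2 ECKO replicates 1 and 3. These sums therefore do not measure the share of neurons or astrocytes. In the Ezh2 ECKO-labelled libraries, pericyte markers summed to 31.9 to 33.2 CPM, astrocyte markers to 40.1 to 72.1 and red cell genes to 1455 to 3599, and in beta-catenin GOF these sums were 72.3 to 105, 35.4 to 52.8 and 271 to 20828 CPM. The part of these cells in the values of Kif20a, Hjurp, Cenpa, Chaf1b, Cdk4, E2f3 and Cdkn1a was not tested.

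Direct tests between the mutant groups compare their libraries with each other. WT enters only through the shared estimate of the spread, the scaling and the gene filter. In beta-catenin GOF against Hdac2 ECKO, Hjurp was lower, with 3.82, 1.79 and 1.74 CPM against 21.2, 20.4 and 24.3 (log2 fold change -3.17 ± 0.53, edgeR adjusted p = 0.039). It was the only one of the 34 members called there, against 0.0239% of all genes called lower and 0.0477% called higher. The call was lost without WT replicate 2 (edgeR adjusted p = 0.060), Hdac2 ECKO replicate 1 (0.16) or 3 (0.19), replicate 3 labelled Ezh2 ECKO (0.0502) or beta-catenin GOF replicate 1 (0.13), 2 (0.25) or 3 (0.21), and with the length and GC trend removed (0.063). Against the Ezh2 ECKO-labelled libraries the change in beta-catenin GOF was -3.00 ± 0.52 and did not pass (edgeR adjusted p = 0.051), in a comparison where 0.0636% of genes were called in either direction. No member was called between Hdac2 ECKO and the Ezh2 ECKO-labelled libraries, where 0.0239% of genes were called. Of the other listed genes, Cdkn1a was higher in beta-catenin GOF (131, 122 and 126 CPM) than in Hdac2 ECKO (32.5, 34.6 and 40.1), by 1.82 ± 0.32 on the log2 scale (edgeR adjusted p = 0.048).

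Over the 12 libraries, the genes whose log2 CPM ran most like that of Top2a were Wdr35 (Pearson's r 0.89), Sec63 (0.86), Mccc1 (0.85) and Stau2 (0.85), and those most like Mcm6 were Ints9 (0.88), Zcchc3 (0.88), Vmn2r110 (0.87), Nr1d1 (0.85) and Slco1a6 (0.84). None is a member of the 40 or of the other lists, and with 12 points picked from 12577 genes these values are a description.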

How the data were processed

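RNA was sequenced from 12 libraries of sorted CD31+/CD41-/CD45- brain endothelial cells. Per the submitters' processing notes, FastQC, cutadapt, STAR, featureCounts and DESeq2 were used with the mouse genome mm10; versions, annotation and strand setting are not given in the sources used here. The deposited table is called normalized, but its values are whole numbers with totals that differ between libraries, so the authors' deposited values were used as counts. Of values from 10 to 50, 79.5 to 84.0% were even, so a read pair may count as 2, and halved counts were tried as an alternative.

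Those genes whose mean count reached 10 (12577 of 21638) were fitted with edgeR 4.0.16 (R 4.3.3) by the quasi-likelihood F test, with TMM scaling and 1 term per group over all 12 libraries, and Benjamini-Hochberg adjustment in each of 6 contrasts. CPM are per 1000000 counts of the TMM-scaled total. DESeq2 1.42.0 and limma 3.58.1 served as alternatives, beside other scalings, filters, a replicate block, a length and GC correction and leaving out each library. The script was tested on simulated data. The genes and lists were chosen with earlier results of these data known. Every library's value is given for 10 preset members, for members past the threshold in any contrast, for the 3 of each class with the smallest p against WT and the 3 with the highest mean; pathway genes outside the members are named where they passed against WT. Libraries of a group differed by more than sampling noise (chi-square per degree of freedom at least 62.6). Same-numbered libraries deviated together only between Hdac2 ECKO and the Ezh2 ECKO-labelled libraries (r 0.193, 0.426 and 0.131), a hint from the data that no label explains. Gene positions and exon overlaps are from GENCODE M21 (GRCm38). A count of 3, used as the floor, equals 0.0791 to 0.118 CPM. One gene that the rule for likeness picks is not reported here.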

Additional observations from a re-analysis of the deposited data

Results flagged for a closer look

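In beta-catenin GOF against Hdac2 ECKO, a test of the difference between the 2 mutant groups passed for Hjurp, the centromere histone chaperone gene, with a log2 fold change of -3.17 (edgeR adjusted p = 0.039). All 3 beta-catenin GOF libraries lay below all 3 Hdac2 ECKO libraries. DESeq2 gave no adjusted p for this gene in that comparison.

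In the same comparison Cdkn1a, the gene of the CDK inhibitor p21, was higher by 1.82 on the log2 scale (edgeR adjusted p = 0.048), again in 3 of 3 libraries. Its call was lost under library-size scaling (edgeR adjusted p = 0.071), median-ratio scaling (0.055) and the length and GC correction (0.059). It was also lost without WT replicate 1 (0.052) or 2 (0.097), Hdac2 ECKO replicate 1 (0.32) or 3 (0.24), or beta-catenin GOF replicate 1 (0.20), 2 (0.17) or 3 (0.15).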

How the results depend on the processing

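Of the 34 members tested, edgeR called 1 in Hdac2 ECKO against WT; it called 2 with library-size scaling, 3 with no filter, 3 with a mean count of at least 50, 3 with DESeq2, 2 and 2 with limma at pseudocounts of 1 and 0.5, 5 with voom weights, 2 with the 2 groups alone, 2 with the length and GC correction, 3 with halved counts, and 0 to 3 without 1 library. In the Ezh2 ECKO-labelled libraries against WT the count of 0 became 2 with no filter, 2 with DESeq2, 2 with voom weights, 1 with the length and GC correction and 0 to 2 without 1 library. In beta-catenin GOF against WT it became 1 with no filter (Hjurp) and stayed 0 to 0 without 1 library. Between Hdac2 ECKO and the Ezh2 ECKO-labelled libraries it was 0 throughout. In beta-catenin GOF against Hdac2 ECKO the count of 1 became 2 with no filter, 5 with voom weights, 0 with the length and GC correction and 0 to 1 without 1 library. DESeq2 also called 1 member there, but not Hjurp, for which it gave no adjusted p. Against the Ezh2 ECKO-labelled libraries the count of 0 became 1, Hjurp, in all settings but the replicate block, and 0 to 1 without 1 library.

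Over all genes, the 1157 calls in Hdac2 ECKO became 1826 with library-size scaling, 2279 with no filter, 2553 with DESeq2, 5374 with voom weights and 0 to 2760 without 1 library (0 without WT replicate 1 or 2 or Hdac2 ECKO replicate 3, and 1 without Hdac2 ECKO replicate 1). The 129 calls in the Ezh2 ECKO-labelled libraries became 30, 76, 1367, 219, 1280, 348, 343, 3743, 17 and 341 with library-size scaling, median-ratio scaling, no filter, the higher filter, DESeq2, limma at both pseudocounts, voom weights, the 2 groups alone and the length and GC correction, and 2 to 2328 without 1 library. The 0 calls in beta-catenin GOF became 157 with no filter, 38 with DESeq2, 7 and 6 with limma, 26 with voom weights and 0 to 4 without 1 library. Library-size scaling moved the median of all genes in Hdac2 ECKO from 0.10 to 0.34 and the share of calls that were higher from 41.5% to 80.4%; it was 25.5% with the length and GC correction. In the Ezh2 ECKO-labelled libraries that share went from 33.3% to 56.7% and 58.1%.

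The mitotic median in Hdac2 ECKO (-0.27) became -0.025 with library-size scaling, 0.14 with the higher filter, -0.085 with halved counts and -0.30 to 0.091 without 1 library, and the replication median (-0.04) 0.22 with library-size scaling, -0.17 with the length and GC correction and -0.13 to 0.13. In the Ezh2 ECKO-labelled libraries the medians ran from -0.23 to -0.01 and from 0.10 to 0.38 without 1 library, and the second was 0.46 with the length and GC correction. In beta-catenin GOF the mitotic median (0.26) became -0.0078 with no filter, -0.13 with the higher filter and -0.15 to 0.55 without 1 library, and the replication median ran from -0.17 to 0.081. With no filter, the higher filter or halved counts, other sets of members enter the median, so those medians are not of the same genes. Leaving out 1 library can also change the set. What else lay behind these moves was not tested. The 20 low mitotic genes together held 316 to 1110 counts in a library.

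With the replicate number as a block, 3 members passed in Hdac2 ECKO (Kif20a, Cenpa and Hjurp), 1 in the Ezh2 ECKO-labelled libraries (Kif20a) and 0 in beta-catenin GOF against WT, with 1832, 536 and 0 calls over all genes, and the mitotic median of beta-catenin GOF was 0.0040. No label ties the numbers to a shared animal or day.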
